A study of Mus musculus with 15 samples.

Results

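Potassium channels set the resting potential of neurons and end their action potentials, and the bulb expresses most of the mouse genes that encode them. The genes described here were chosen by name, as every gene whose name on the array design is Kcn followed by letters and a number. Kcnj8 and Kcnj10, which are known from pericytes and astrocytes, were left out. The choice was made with earlier results of these data known. This gave 90 genes on 136 probes. Of these, 81 genes and 118 probes were bright enough to be tested, among 27438 genes tested in all, 17636 of them with a gene symbol.

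RNA came from whole olfactory bulbs of 15 male mice aged 6 to 8 weeks, 1 mouse to an array, 2 weeks after 500 nL of an adeno-associated virus (AAV). All 3 groups of 5 mice received a virus whose cargo is inverted (flex) until Cre recombinase turns it. The knockout group was CRHR1-/- with AAV-flex GFP, in strain 129S4/SvJae; it lacks the receptor for corticotropin-releasing hormone (CRH), a stress peptide, in every cell. The Cre GFP group was CRHR1-Cre with AAV-flex-GFP, in strain C57Bl/6, and stood for ordinary CRH signalling. The active CRHR1 group was CRHR1-Cre with AAV-flex-(CA)CRHR1, a constitutively active receptor, in strain C57Bl/6. The labels place Cre in CRHR1-positive granule cells, so the active receptor was made in a part of the bulb's cells while RNA was taken from all of them. In a comparison with the knockout group, strain, Cre with its viral cargo and the missing receptor cannot be told apart. The labels do not describe littermates or other links between mice, and p-values measure the spread between these 5 arrays a group.

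Channels of the Kv families open on depolarisation, and each is a tetramer that may include electrically silent subunits and auxiliary proteins. KCNQ channels carry the M current that restrains repeated firing, and EAG, ERG and ELK channels shape excitability below and near threshold. Calcium- and sodium-activated channels follow spikes with hyperpolarisation. Inward rectifiers (Kir) and tandem-pore channels hold the membrane near the potassium equilibrium potential, the former including channels opened by G proteins or closed by ATP. Receptors coupled to Gs, as CRHR1 is, raise cyclic AMP, which acts on several of these channels and on transcription through CREB.

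Each probe is a 60-base oligonucleotide. The first 30 bases of the probes of 5 genes to which the results return are given, since each value rests on such a sequence. Capitals mark bases that a second probe of the same gene also covers, and positions are of the bases shown, in mouse build mm9.
Kcnk6, chr7:30007245-30007274, minus strand: tgggaagtgatgactattcctggttctgaa
Kcns2, chr15:34772007-34772036, plus strand: gggggaatcccaaagtgctttagagactgt
Kcnip4, chr5:48780919-48780948, minus strand: tttacgactgtctgcaacaataaatcaggt
Kcnj11, chr7:53353149-53353178, minus strand: agaaaaagaaatattgggaagttcagcctg
Kcnq1, chr7:150612887-150612916, plus strand: aatttcgtaGTATGATCTTGATTGAGAGAC
Kcnq1, the second probe, chr7:150612896-150612925, plus strand: GTATGATCTTGATTGAGAGACTTTTCCAAA
The Kcnq1 probes share 51 of their 60 bases, so the second is no separate check of the first. Kcnq1 was the 1 member with an overlapping pair, among 31 members with several kept probes. No annotation of build mm9 was used here, and whether a probe lies in coding sequence or in a UTR was not determined.

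RefSeq promoter windows (build GRCm38.p6, each 300 bases long around an annotated start) matched 65 of the 90 members. They were searched on both strands for TGACGTCA, the full cyclic AMP response element that CREB binds, for its core TGACG, which the full element contains, and for the core of the interferon-stimulated response element (ISRE), GAAA and GAAA set apart by any pair of bases. The full element stood in 0 of the 90 windows of members and in 1.79% of all 32851 windows. TGACG stood in 16 windows of members (17.8%, against 20.8% of all windows), and the ISRE core in 7 (7.78%, against 3.44%). Windows of a gene can overlap, as the Kcnc2 pair with the ISRE core does. By gene, the ISRE core was in 5 of 65 (7.69%, against 3.99% of all 27025 genes). Of the 12 members that fell with active CRHR1, 7 had windows, 12 in all. TGACG stood in those of Kcnh5 and Kcnh8, and the ISRE core in 2 windows of Kcnab1. By gene, TGACG was in 2 of these 7 (28.6%), against 24.6% of the members with windows and 23% of all genes. The stretches below run from 130 bases before to 20 after the start, with the matches in capitals. They are shown because their genes fell and their windows hold a match.
Kcnh5, chr12:75177313-75177462, minus strand: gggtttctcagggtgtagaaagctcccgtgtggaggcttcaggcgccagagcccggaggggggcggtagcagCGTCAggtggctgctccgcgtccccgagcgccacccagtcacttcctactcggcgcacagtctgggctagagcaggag
Kcnh8, chr17:52602579-52602728, plus strand: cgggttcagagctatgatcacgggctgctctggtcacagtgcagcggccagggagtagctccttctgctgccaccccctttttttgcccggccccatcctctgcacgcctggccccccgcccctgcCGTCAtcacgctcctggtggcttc
Kcnab1, chr3:64949082-64949231, plus strand: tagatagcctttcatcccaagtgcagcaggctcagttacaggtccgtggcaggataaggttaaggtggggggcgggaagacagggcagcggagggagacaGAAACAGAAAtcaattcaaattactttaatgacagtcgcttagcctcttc
Kcnab1, a further start, chr3:65187973-65188122, plus strand: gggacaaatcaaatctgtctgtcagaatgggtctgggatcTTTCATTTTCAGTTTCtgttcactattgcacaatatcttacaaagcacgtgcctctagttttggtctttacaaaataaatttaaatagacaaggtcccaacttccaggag
The TGACG match lies on the opposite strand in both Kcnh genes, with its first base at -58 from the start in Kcnh5 and at -4 in Kcnh8. The second Kcnab1 stretch holds 2 overlapping matches, on the opposite strand. A match is a string of letters and shows no binding.

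A level is the log2 of a probe's signal after its array's 75th percentile was subtracted on that scale. Group levels are means ± SD (n = 5). A change is the difference between the levels of 2 groups (log2) ± SE, and its adjusted p is limma's. A level of 0 is the signal of the probe at that percentile, and levels of different genes cannot be compared. The 75th percentile signal lay between 664 and 1170, and 58.7% to 66.9% of probes were well above background. All 8 neuron and all 8 granule cell markers listed were bright enough to be tested. The arrays lay on 2 slides: all of the knockout with Cre GFP 1, 2 and 3 on slide 1, and all of active CRHR1 with Cre GFP 4 and 5 on slide 2. The targeted gene, Crhr1, lay at 2.99 to 3.32 on the knockout arrays, 3.48 to 3.86 on the Cre GFP arrays and 3.57 to 3.83 on the active CRHR1 arrays. It was lower in the knockout (adjusted p = 0.0140, limma) and did not differ by this test with active CRHR1 (adjusted p = 0.547, limma). Whether its probe lies in the deleted part, or reads the RNA of the viral receptor, was not determined.

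Active CRHR1 against Cre GFP asks what a raised CRH signal goes with, within the C57Bl/6 strain. The tandem-pore channel gene Kcnk6 rose by 0.80 on the log2 scale, a 1.74-fold rise, and 12 channel genes fell, by 1.20-fold to 1.48-fold. The falls ran through nearly all families: silent Kv subunits, KCNQ, EAG and ELK channels, auxiliary Kv subunits, a G protein-gated rectifier and tandem-pore channels. The 13 called genes are 16.0% of the 81 tested, where 8.52% of all genes were called. The 1 rise stands against 3.89% of all genes called higher, and the 12 falls against 4.64% called lower. The mean was lower with active CRHR1 for 69 of the 81 members and higher for 12, with a median change of -0.18, where the median over all genes was -0.07. Most genes leaned the same way: of all 27438 genes tested, 16971 means were lower and 10467 higher. Groups did not overlap for 17 of the 81 members, where 10.5% of all genes had such groups. Of the 13 called genes, all but Kcng1 were among the 17.

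The shift was seen on every active CRHR1 array. The median deviation of the 81 members from their Cre GFP means was -0.27, -0.15, -0.12, -0.13 and -0.26 on active CRHR1 arrays 1 to 5, and -0.02, 0.05, -0.02, -0.06 and 0.04 on the Cre GFP arrays. These groups did not overlap, and between 61 and 69 members lay below the Cre GFP mean on each active CRHR1 array. Over all genes the same deviation ran from -0.10 to -0.03 on the active CRHR1 arrays and from -0.01 to 0.02 on the Cre GFP arrays. The groups thus did not overlap over all genes either. The share of all genes below the Cre GFP mean was not counted by array. On the knockout arrays the members' deviation ran from -0.11 to -0.03.

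**Figure D1:**
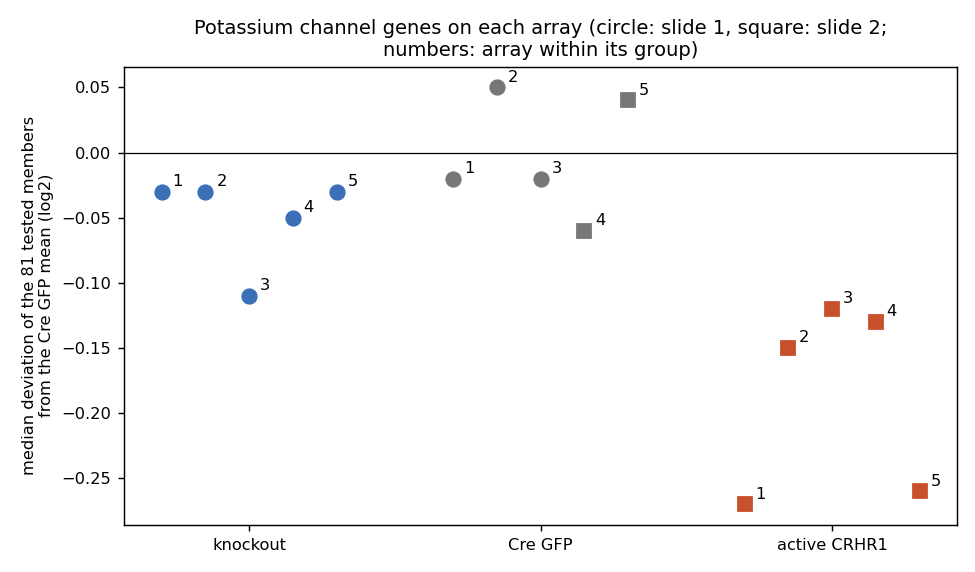
The vertical axis gives, for each of the 15 arrays, the median over the 81 tested potassium channel genes of the level minus that gene's Cre GFP mean (log2). The 5 active CRHR1 arrays lie between -0.27 and -0.12, below all Cre GFP arrays (-0.06 to 0.05), with arrays 1 and 5 lowest.

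Among tandem-pore channels, which leak potassium at rest, 1 of 13 rose and 2 fell. Kcnk6 (TWIK-2), known from macrophages and microglia, lay at 0.56, 0.02, 0.18, 0.39 and 0.68 on active CRHR1 arrays 1 to 5. It lay at -0.41, -0.36, -0.46, -0.40 and -0.55 on the Cre GFP arrays and at -0.66, -0.57, -0.25, -0.54 and -0.37 on the knockout arrays. Every active CRHR1 array was above every other array, while knockout and Cre GFP arrays overlapped. The rise of 0.80 ± 0.12 (adjusted p = 0.000936, limma) was 0.84 with slide as a block (adjusted p = 0.0115, limma). Its relative Kcnk1 (TWIK-1), moved the other way, from 2.11, 2.19, 2.04, 2.03 and 2.14 in Cre GFP to 1.78, 1.91, 1.88, 1.75 and 1.79 with active CRHR1. The groups were apart, and the fall was 0.28 ± 0.06 (adjusted p = 0.00680, limma). Kcnk3 (TASK-1), an acid-sensitive leak channel, fell from 1.91 ± 0.04 to 1.58 ± 0.16 (-0.33 ± 0.09, adjusted p = 0.0382, limma). In this family 12 of 13 means were lower with active CRHR1.

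The electrically silent subunits, which form no channel alone and modify the channels they join, had the lowest median of the 8 families at -0.38. All 8 tested means were lower, and 2 genes fell. Kcns2 (Kv9.2) lay at -0.43, -0.45, -0.35, -0.41 and -0.22 on the Cre GFP arrays and at -0.96, -0.88, -0.70, -0.82 and -0.93 on the active CRHR1 arrays. The groups were fully apart, a fall of 0.49 ± 0.08 (adjusted p = 0.00247, limma), and of 0.55 with slide as a block (adjusted p = 0.0164). Kcng1 (Kv6.1) fell from -1.19 ± 0.25 to -1.74 ± 0.22, by 0.55 ± 0.15 (adjusted p = 0.0352, limma), with overlapping arrays. Of the remaining 6, Kcng2, Kcns1, Kcnv1, Kcnf1, Kcns3 and Kcng4 differed by -0.42, -0.42, -0.33, -0.20, -0.18 and -0.12, none past the threshold in limma (adjusted p from 0.0549 to 0.433).

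Among the pore subunits of Kv1 to Kv4 channels 1 of 17 fell and 14 means were lower (median -0.14). The A-type channel genes Kcnd2 and Kcnd3 differed by -0.25 ± 0.08 and -0.24 ± 0.08 without passing (adjusted p = 0.0740 and 0.0762, limma). Of the KCNQ genes 1 of 5 fell and all 5 means were lower: Kcnq3, an M current subunit, went from -2.18 ± 0.14 to -2.57 ± 0.14 (-0.39 ± 0.10, adjusted p = 0.0283, limma).

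Of the 8 EAG, ERG and ELK genes 2 fell. Kcnh8 (an ELK channel) lay at -2.71, -2.71, -2.80, -2.76 and -2.24 in Cre GFP and at -3.44, -2.81, -3.14, -3.12 and -3.52 with active CRHR1. The nearest arrays of both groups were -2.80 and -2.81, and the fall was 0.56 ± 0.14 (adjusted p = 0.0265, limma). A second Kcnh8 probe that lies apart from the first gave -0.34 without passing (adjusted p over probes = 0.301, limma). The first probe is given on the minus strand of mm9 and the gene's RefSeq start on the plus strand of GRCm38.p6. It is alone in this among the 65 members with a window, and which strand's RNA it reads was not determined. Kcnh5 (an EAG channel) fell from -0.35 ± 0.12 to -0.66 ± 0.13 (-0.31 ± 0.08, adjusted p = 0.0253, limma). Both Kcnh promoter stretches printed above were chosen for their TGACG match, which 23% of all genes with windows hold.

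Auxiliary Kv subunits gave 3 falls among 9 tested genes, all in cytoplasmic subunits that bind Kv1 or Kv4 channels. Kcnip4, a calcium-binding partner of Kv4, lay at 2.19, 2.29, 2.09, 2.10 and 2.13 in Cre GFP and at 1.83, 2.03, 1.83, 1.67 and 1.62 with active CRHR1. The groups did not overlap, and the fall was 0.36 ± 0.08 (adjusted p = 0.00936, limma). A second Kcnip4 probe, whose 60 bases are spread over a longer stretch of the genome, gave the same -0.36 without passing (adjusted p over probes = 0.0955, limma). Kcnab1, a beta subunit of Kv1 that speeds inactivation, lay at -0.20, -0.16, -0.14, -0.13 and -0.15 and then at -0.50, -0.36, -0.32, -0.53 and -0.52. It fell by 0.29 ± 0.06 (adjusted p = 0.00792, limma), again with no overlap. Kcnip1 fell by 0.26 ± 0.07 (adjusted p = 0.0268, limma), from 1.89 ± 0.06 to 1.63 ± 0.02.

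Of 12 inward rectifier genes 1 fell. Kcnj3 (GIRK1), the common subunit of G protein-gated channels, lay at 0.11, 0.20, 0.03, -0.04 and 0.15 in Cre GFP and at -0.27, -0.22, -0.25, -0.20 and -0.32 with active CRHR1. No arrays overlapped, a fall of 0.34 ± 0.08 (adjusted p = 0.0146, limma), with -0.26 ± 0.09 at a second Kcnj3 probe (adjusted p over probes = 0.0852, limma). The other GIRK genes did not pass, with changes of 0.33 ± 0.16 for Kcnj6, -0.07 ± 0.22 for Kcnj5 and -0.14 ± 0.09 for Kcnj9. Of the 9 calcium- and sodium-activated channel genes 0 passed in limma and 2 had an unadjusted p under 0.05. Closest to the threshold in limma were Kcnmb4, a beta subunit of BK channels (-0.30 ± 0.11), the BK pore gene Kcnma1 (-0.21 ± 0.09) and Kcnu1 (-0.13 ± 0.07), with adjusted p from 0.112 to 0.217.

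**Figure D2:**
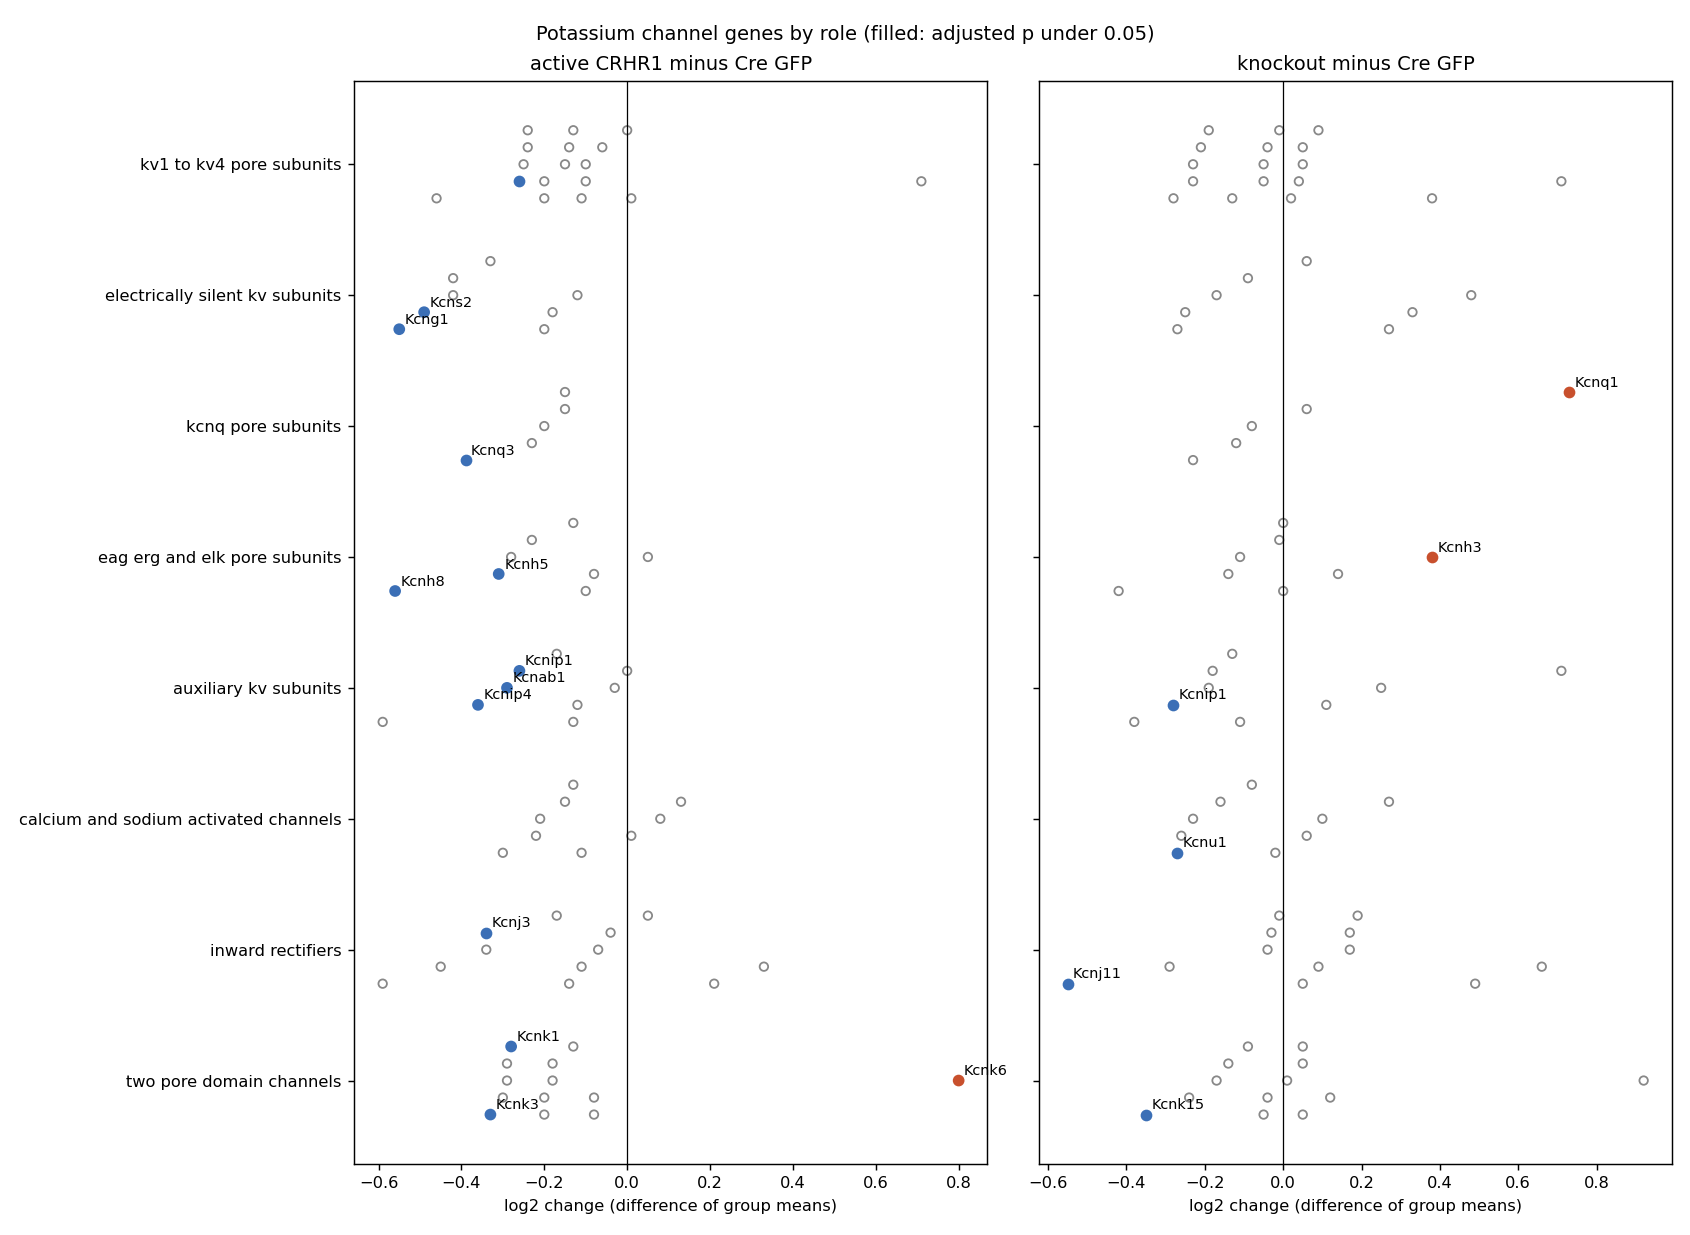
Each point is a tested potassium channel gene, placed by its log2 change on the horizontal axis in the row of its role, with points spread vertically for legibility; filled points passed an adjusted p of 0.05. With active CRHR1 (left) most points lie left of 0 and Kcnk6, at 0.80, is the 1 filled point right of it; in the knockout (right) Kcnq1 and Kcnh3 are higher and 4 genes lower.

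With slide as a fixed block the active CRHR1 change rests on slide 2, where Cre GFP has 2 arrays. With the block all 13 changes kept their direction, Kcnk6 and Kcns2 kept their calls, and the other 11 lost them (adjusted p from 0.0538 to 0.179, limma). With the block Kcnip4 was at -0.32, Kcnab1 at -0.31 and Kcnk1 at -0.26, and Kcnh8 moved the most of the 13, from -0.56 to -0.71. With slide as a random block, all 13 kept their calls and 19 members passed. At their brightest probes Kcng2 and Kcnq1 passed with the block alone, at -0.67 and -0.59 (adjusted p = 0.0427 and 0.0399, limma). Without a block the brightest Kcnq1 probe gave -0.23 (adjusted p = 0.340, limma). The second Kcnq1 probe, which overlaps it, gave -0.56 without a block and passed (adjusted p over probes = 0.0232, limma). Among slide 2 arrays alone 0 of 81 members passed in limma and 32 had an unadjusted p under 0.05, with Kcns2 at an adjusted p of 0.0573 and Kcnk6 at 0.0746. When each of the 15 arrays was left out in turn, 6 of the 13 kept their calls each time: Kcnk6, Kcns2, Kcnip4, Kcnab1, Kcnk1 and Kcnj3. The count of called members fell to 6 without Cre GFP array 5, active CRHR1 array 1 or active CRHR1 array 5, and was 20 without knockout array 5.

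**Figure D3:**
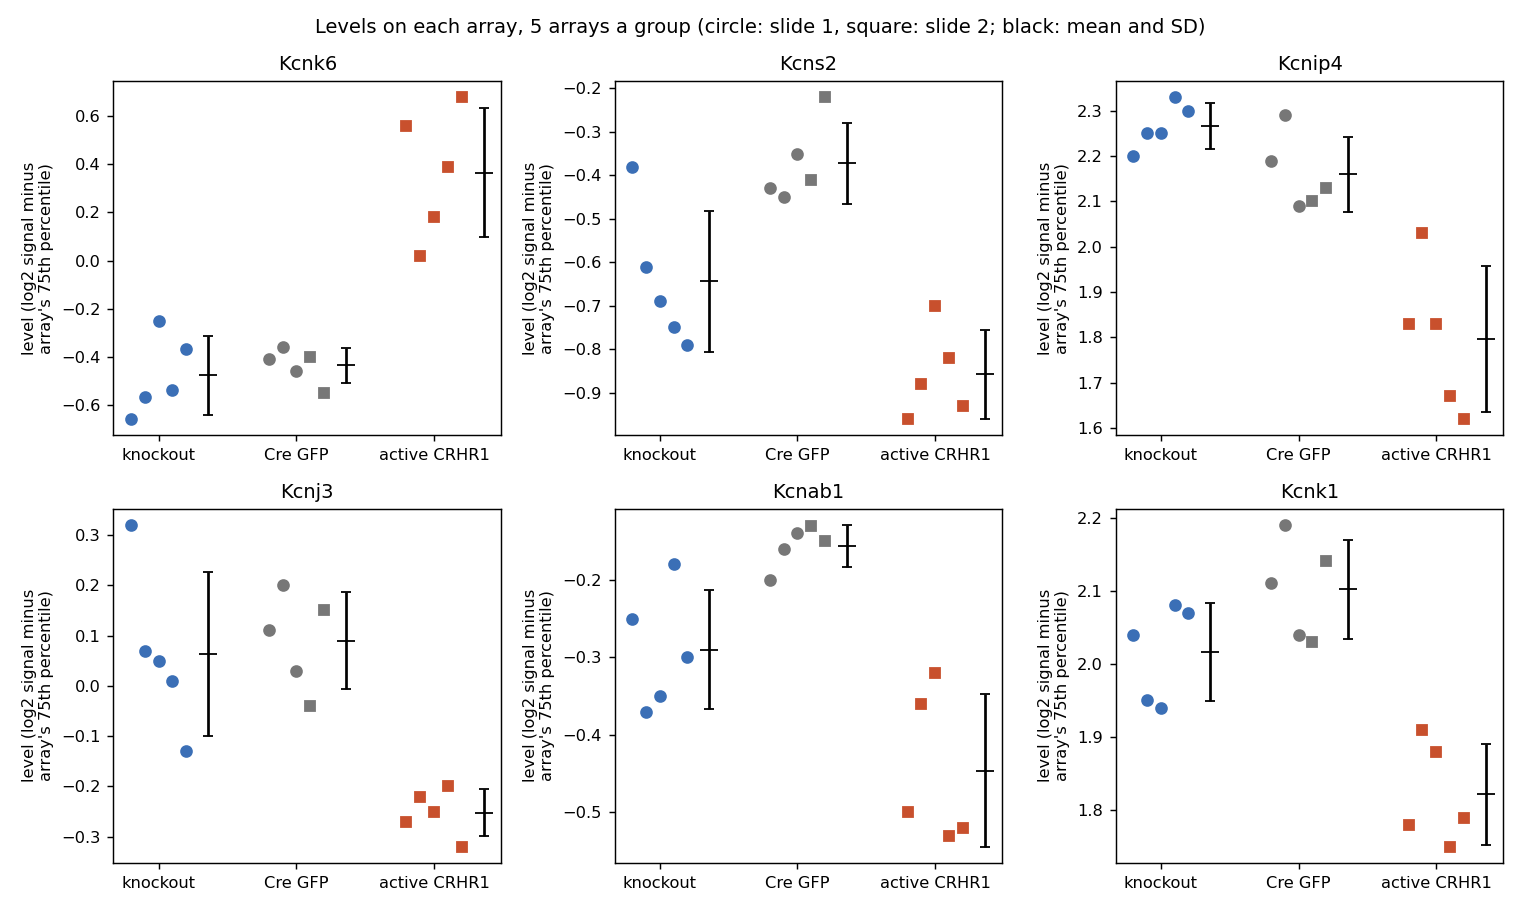
Levels (log2 signal minus the array's 75th percentile) of 6 genes on each of 15 arrays, with circles for slide 1, squares for slide 2, and the mean and SD of each group in black. Kcnk6 is higher on all 5 active CRHR1 arrays than on any other, and Kcns2, Kcnip4, Kcnj3, Kcnab1 and Kcnk1 are lower there than on all Cre GFP arrays.

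Markers of other cells moved in the same comparison. Of 10 microglia and macrophage markers 7 were higher and 0 lower with active CRHR1, and their mean level was 2.94 to 3.40 there against 2.34 to 2.75 in Cre GFP and 2.54 to 2.82 in the knockout. Of 6 T cell markers 4 were higher, with mean levels of -2.63 to -0.83 against -3.40 to -1.88 in Cre GFP. Of 8 neuron markers 4 were lower and 0 higher, at 4.87 to 5.07 against 5.14 to 5.35, and of 8 granule cell markers 2 were lower, at 5.05 to 5.34 against 5.34 to 5.52. Of 7 oligodendrocyte markers 2 were lower and all 7 means were, at 2.93 to 3.46 against 3.43 to 3.84. Of 7 astrocyte markers 1 was higher, Gfap, by 0.86 ± 0.21 (adjusted p = 0.0220, limma). In whole bulb RNA, fewer cells of a type and less RNA per cell cannot be told apart. On active CRHR1 arrays 1 and 5, where the channel genes were lowest, the neuron markers were lowest too (4.87 and 4.92) and Kcnk6 was highest. The median deviation over all genes was also lowest on arrays 1 and 5 (-0.10 and -0.08). The microglia and T cell marker means were highest on active CRHR1 array 4 (3.40 and -0.83). The part of these cells in the channel genes' changes was not tested. Of 5 potassium channel genes listed as known from microglia, macrophages and lymphocytes, Kcnk6 alone rose. Kcna3, Kcnn4, Kcnk13 and Kcnj2 differed by 0.00 ± 0.15, 0.08 ± 0.16, -0.18 ± 0.07 and -0.45 ± 0.18, with adjusted p from 0.112 to 0.990 (limma).

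Knockout against Cre GFP asks what a lowered CRH signal goes with, and also spans both strains. Here 2 channel genes rose and 4 fell: Kcnq1 and Kcnh3 were higher in the knockout, and Kcnj11, Kcnk15, Kcnip1 and Kcnu1 lower. Among these 6 the largest changes were 1.65-fold up for Kcnq1 and 1.46-fold down for Kcnj11. The 6 called genes are 7.41% of the 81 tested, where 3.38% of all genes were called, 1.95% higher and 1.43% lower. The members' median change was -0.03 and that of all genes 0.00, with 35 means higher and 46 lower in the knockout. Groups did not overlap for 7 members (8.64%, where 5.54% of all genes had such groups).

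Kcnq1 (Kv7.1), best known from heart and epithelia, lay at -2.82, -2.69, -2.60, -2.78 and -2.53 on the knockout arrays. It lay at -3.84, -3.67, -3.42, -3.20 and -2.90 on the Cre GFP arrays, and at -3.69, -3.77, -3.43, -3.84 and -3.48 on the active CRHR1 arrays. Every knockout array was above every other array. The rise in the knockout was 0.73 ± 0.15 (adjusted p = 0.0201, limma), and 0.96 with slide as a block (adjusted p = 0.00254). Within Cre GFP the slide 1 arrays were the lower ones. The overlapping second probe gave 0.62 (adjusted p over probes = 0.0273, limma). Kcnh3 (an ELK channel of forebrain neurons) rose from 5.94 ± 0.12 to 6.33 ± 0.14, by 0.38 ± 0.09 (adjusted p = 0.0287, limma), with no overlap.

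Kcnj11 (Kir6.2), the pore of channels closed by ATP, lay at -0.57, -0.60, -0.96, -0.72 and -0.54 in Cre GFP and at -1.01, -1.05, -1.31, -1.29 and -1.47 in the knockout. The groups did not overlap, and the fall was 0.55 ± 0.11 (adjusted p = 0.0135, limma). A second Kcnj11 probe that lies apart from the first gave -0.78 (adjusted p over probes = 0.0518, limma). The sulfonylurea receptor gene Abcc8, its usual partner in neurons, differed by -0.22 ± 0.09 without passing (adjusted p = 0.196, limma). The tandem-pore gene Kcnk15 fell by 0.35 ± 0.09 (adjusted p = 0.0497, limma), Kcnip1 by 0.28 ± 0.07 (adjusted p = 0.0346) and Kcnu1, a pore gene related to BK channels, by 0.27 ± 0.07 (adjusted p = 0.0456). In each of these 3, arrays of the groups overlapped. Knockout array 1 lay at 1.86 for Kcnip1, within the Cre GFP range of 1.82 to 1.95, and the other knockout arrays at 1.51 to 1.56. A second Kcnip1 probe gave 0.13 (adjusted p over probes = 0.776, limma), so the fall was not seen at both probes.

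Of the 6 calls, Kcnq1 kept its call with slide as a block and the other 5 lost theirs (adjusted p from 0.0627 to 0.156, limma), all with the same direction. Kcnq1 and Kcnj11 kept their calls whichever of the 15 arrays was left out, and the other 4 lost them at least once. After median centring of the arrays the calls were 2 higher and 1 lower, and in the authors' scaled values 0 higher and 1 lower of 75 members tested. The count was 2 without knockout array 4 or Cre GFP array 3, 4 or 5, and 3 without knockout array 2 or 3 or Cre GFP array 2. Without both knockout arrays that stood apart in signal (2 and 5, chosen after the data were seen) 2 genes were called, both lower.

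Among the 17 Kv1 to Kv4 genes 0 passed in limma in the knockout and 4 had an unadjusted p under 0.05. Among the closest to the threshold were the fast Kv3 gene Kcnc2 (-0.23 ± 0.07), whose groups did not overlap, and Kcnd2 (-0.23 ± 0.08), with adjusted p of 0.106 and 0.148 (limma). Of the 8 silent subunits 0 passed in limma and 4 had an unadjusted p under 0.05, with values of -0.27 ± 0.08 for Kcns2, 0.48 ± 0.15 for Kcng1 and -0.25 ± 0.10 for Kcng4 (adjusted p from 0.0857 to 0.172). Some Kv1 levels, named after they were seen, were spread widely over the knockout arrays. Kcna4 lay at 2.02 on knockout array 5 and at -0.13 to 0.50 on the others, with 0.05 to 0.26 in Cre GFP. Kcna2 lay at -0.34 on the same array and at 0.39 to 0.99 on the others.

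Some genes had probes that did not move alike, and these too were named after they were seen. For Kcnc1, a Kv3 pore gene of fast-spiking neurons, the brightest probe gave 0.04 in the knockout (adjusted p = 0.888, limma), and 2 other probes gave -0.48 and -0.93. The last passed with an adjusted p over probes of 1.38e-05 (limma), and gave -0.42 with active CRHR1 (adjusted p over probes = 0.00256, limma). The Kcnc1 probes lie apart, and which transcripts each covers was not determined. For Kcnk4 (TRAAK), a second probe gave -0.66 with active CRHR1 (adjusted p over probes = 0.0394, limma), where the brightest gave -0.20 (adjusted p = 0.0919). For Kcnh7 a second probe gave 0.95 for active CRHR1 minus knockout (adjusted p over probes = 0.0135, limma) and the brightest 0.00.

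**Figure D4:**
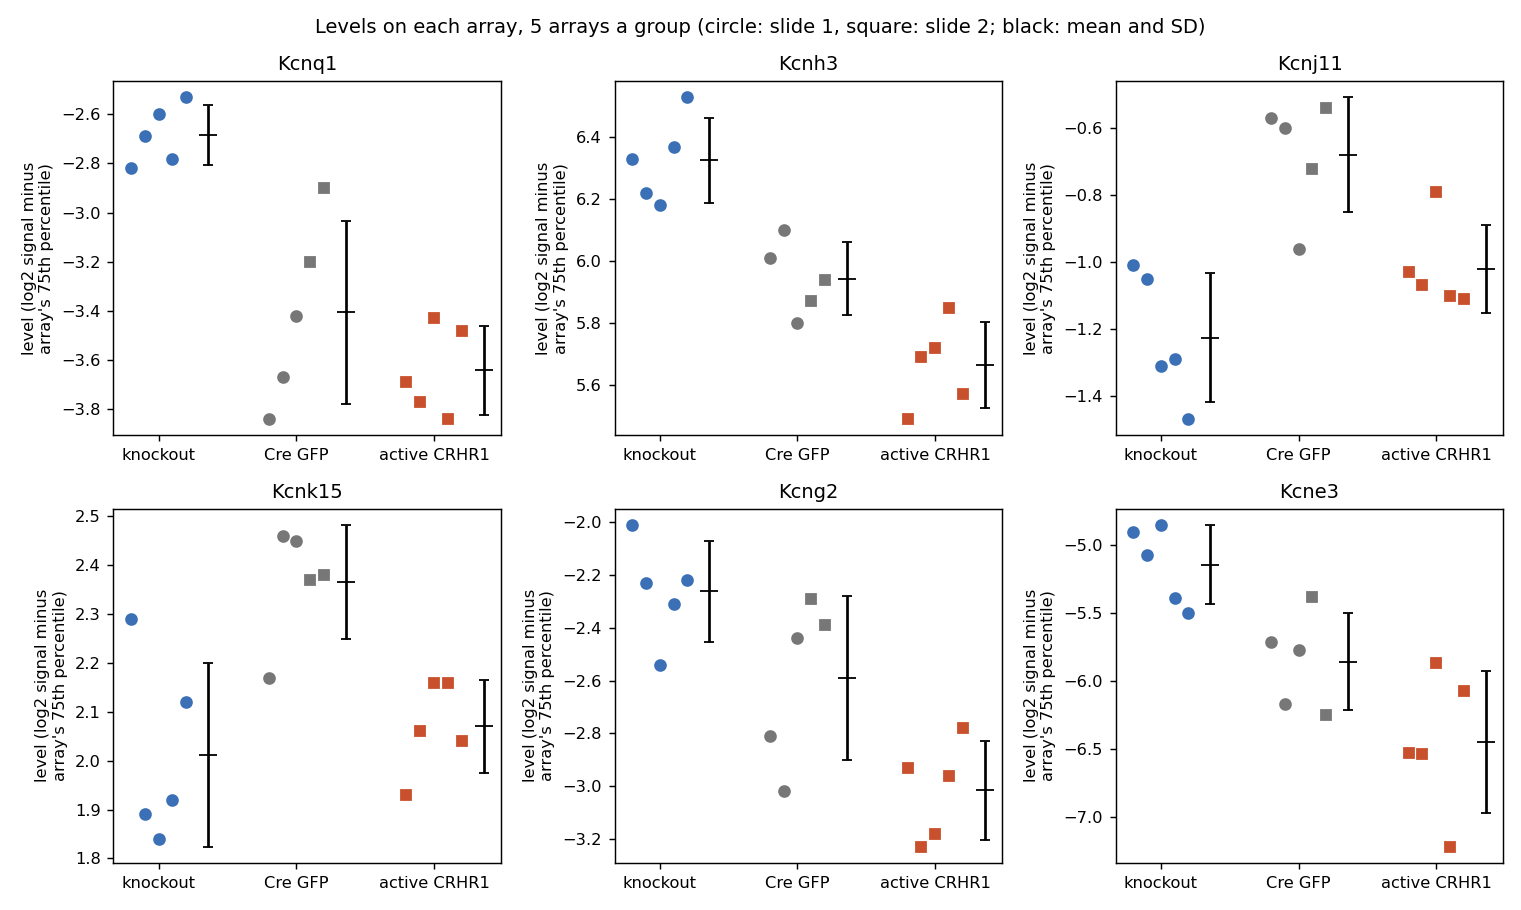
Levels (log2 signal minus the array's 75th percentile) of 6 genes on each of 15 arrays, with circles for slide 1, squares for slide 2, and the mean and SD of each group in black. Kcnq1 and Kcnh3 are higher on all knockout arrays than on all others and Kcnj11 is lower there than on all Cre GFP arrays. Kcng2 and Kcne3 are lower on all active CRHR1 arrays than on all knockout arrays, and Kcne3 passed the filter only through the knockout.

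Active CRHR1 against knockout sets the labels' highest CRH signal against the lowest, across both strains and with no slide in common. It shares its groups with the comparisons above, so that a gene named in them may appear here again from the same arrays. Here 25 of 81 members passed (30.9%, where 25.7% of all genes were called). Of these 2 were higher with active CRHR1 (9.44% of all genes) and 23 lower (16.3% of all genes), with a median of -0.14 for the members and -0.07 for all genes. Among the called members above background on all arrays of both groups, the largest falls were in Kcng1, Kcnq1, Kcng2, Kcnj5 and Kcnh3, between 1.59-fold and 2.05-fold. Groups did not overlap for 18 of the 81 members (22.2%, where 18.7% of all genes had such groups).

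Kcne3 and Kcnk7 were dim. Kcne3, an auxiliary subunit of KCNQ1 and Kv channels, lay at -4.90, -5.07, -4.85, -5.39 and -5.50 in the knockout and at -6.53, -6.54, -5.87, -7.22 and -6.07 with active CRHR1. It was well above background on 4 knockout, 2 Cre GFP and 0 active CRHR1 arrays, so that it was tested only through the knockout, the group where it is high, and its difference from that group supports nothing further. It was at least 1.76-fold lower with active CRHR1 (adjusted p = 0.00263, limma). For this bound each active CRHR1 array was set to its lowest level above background unless the probe itself was brighter. The measured change was -1.30 ± 0.24, and -0.47 after normexp background correction. Kcnk7, a tandem-pore gene, was above background on 5 knockout and 3 active CRHR1 arrays. Its measured change was -1.05 ± 0.33 (adjusted p = 0.0324, limma), and -0.45 after normexp, a call lost in 7 of the 15 omissions of an array. Kcnq1, with which Kcne3 pairs in epithelia, fell by 0.96 ± 0.15 (adjusted p = 0.00117, limma), and by 1.55 with slide as a block (adjusted p = 0.00231). Kcnq1 had its highest group mean in the knockout, at -2.68 ± 0.12. The Kcne3 mean there, -5.14 ± 0.29, is no second case, since Kcne3 passed the filter only through that group.

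Of the 8 silent subunits 4 fell. Kcng1 went from -0.94, -1.01, -0.41, -0.68 and -0.48 in the knockout to -1.84, -1.70, -1.99, -1.40 and -1.77 with active CRHR1, a fall of 1.04 ± 0.15 (adjusted p = 0.000675, limma) with no overlap. Its Cre GFP arrays lay between, at -1.56 to -0.94, and touched both groups. Kcng2 (Kv6.2) lay at -2.01, -2.23, -2.54, -2.31 and -2.22 and then at -2.93, -3.23, -3.18, -2.96 and -2.78, a fall of 0.75 ± 0.14 (adjusted p = 0.00340, limma), and the fit with a slide block gave a fall of 1.17 (adjusted p = 0.0207, limma). Its Cre GFP arrays were at -2.81, -3.02 and -2.44 on slide 1 and at -2.29 and -2.39 on slide 2. A second Kcng2 probe that lies apart from the first gave -0.51 without passing (adjusted p over probes = 0.0573, limma). Kcns3 and Kcnv1 fell by 0.45 ± 0.14 and 0.39 ± 0.10 (adjusted p = 0.0292 and 0.0151, limma).

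Among the other large falls, Kcnh3 dropped by 0.67 ± 0.09 (adjusted p = 0.000395, limma) and its knockout, Cre GFP and active CRHR1 means were 6.33, 5.94 and 5.66. Kcnip4 fell by 0.47 ± 0.08 (adjusted p = 0.00123, limma), while its second probe gave -0.15 (adjusted p over probes = 0.410). Kcnh8 fell by 0.57 ± 0.14 (adjusted p = 0.0137, limma) and Kcnq3 by 0.45 ± 0.10 (adjusted p = 0.00771). At the second Kcnh8 probe the change was -0.30 (adjusted p over probes = 0.272, limma). The GIRK gene Kcnj5 (GIRK4) fell by 0.74 ± 0.22 (adjusted p = 0.0300, limma) with overlapping arrays. The other 11 falls were between 0.20 and 0.35 in size. They included Kcnj3, Kcnk3 and Kcnk1 and, named after their values were seen, Kcnmb4, Kcnj9, Kcna6, Kcnc4, Kcnn3, Kcnk4 and Kcnk10. The second Kcnj3 probe gave 0.06 (adjusted p over probes = 0.621, limma), where the brightest gave -0.32.

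Cell markers moved in this comparison as well. Of 7 oligodendrocyte markers 6 were lower with active CRHR1, with mean levels of 2.93 to 3.46 against 3.53 to 3.98 in the knockout. Of 10 microglia and macrophage markers 5 were higher and 1 lower, of 8 neuron markers 4 were lower and 1 higher, and of 6 pericyte and smooth muscle markers 3 were lower. Their part in the channel genes' changes was not tested.

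The 2 rises were those of Kcnk6, by 0.84 ± 0.12 (adjusted p = 0.000562, limma; 0.91 with slide as a block, adjusted p = 0.0426), and of Kcnt1. Kcnt1, which encodes a sodium-activated channel, lay at 2.21, 2.12, 2.11, 1.88 and 1.77 in the knockout and at 2.33, 2.62, 2.51, 2.38 and 2.22 with active CRHR1. These groups did not overlap, and the rise was 0.40 ± 0.13 (adjusted p = 0.0426, limma), a call lost in 10 of the 15 omissions of an array. With slide as a block, which ties these groups through the Cre GFP arrays alone, Kcng2, Kcnk6 and Kcnq1 kept their calls and 22 of the 25 lost them (adjusted p from 0.0600 to 0.526, limma), all 25 in the same direction. With that block Kcnab2, a beta subunit of Kv1, was called at 0.83 (adjusted p = 0.0418, limma), where the change without it was 0.07 ± 0.18. Its Cre GFP arrays lay at -1.17, -1.24 and -1.63 on slide 1 and at -2.07 and -2.14 on slide 2. The count of called members was 14 without active CRHR1 array 1 or 5, and 16 without knockout array 4. It was 10 without both knockout arrays 2 and 5.

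**Figure D5:**
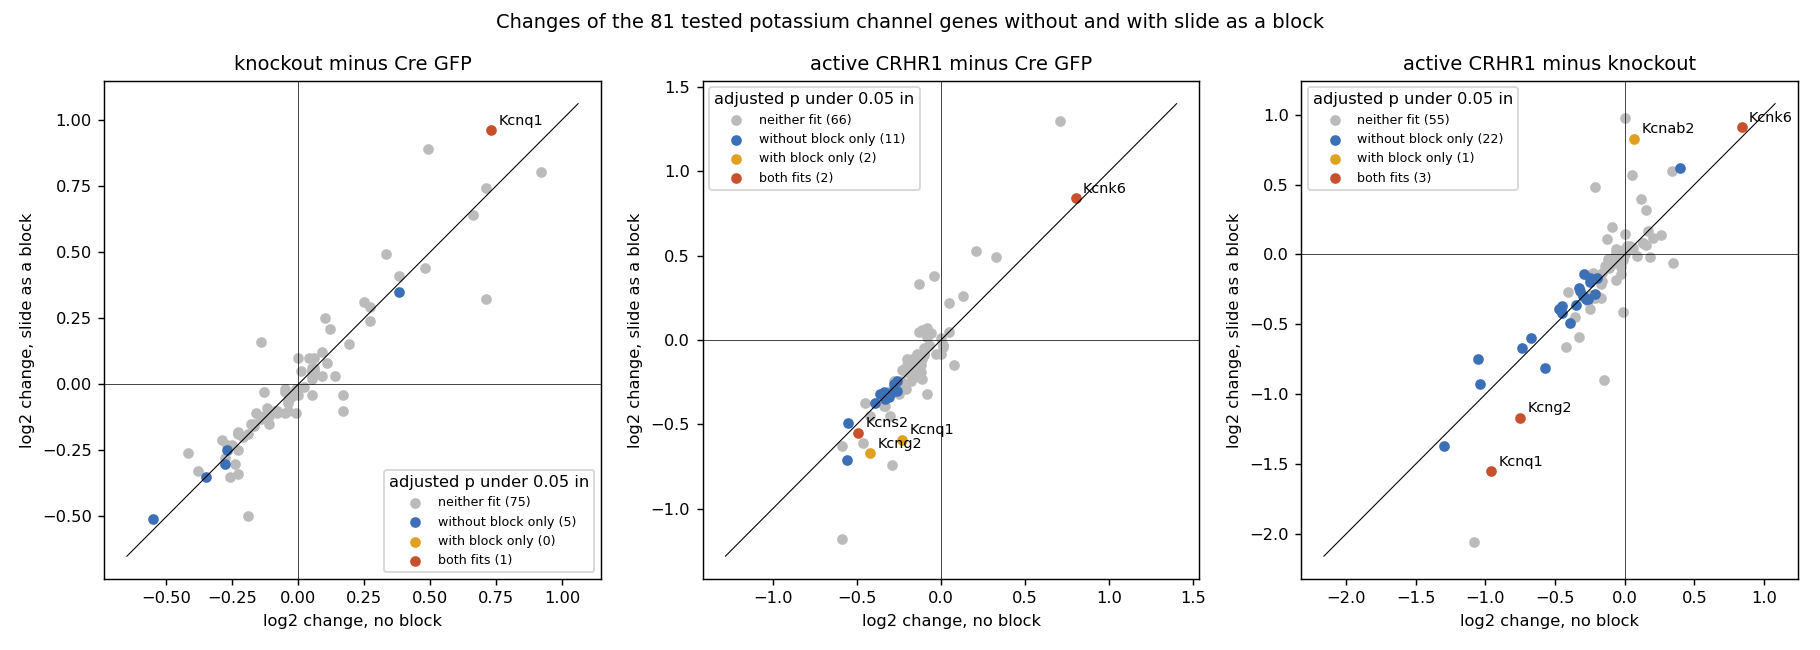
Each point is a tested potassium channel gene, with its log2 change without a block on the horizontal axis and with slide as a block on the vertical axis, for the 3 comparisons; colours give the fits in which its adjusted p was under 0.05. Most points lie near the line of equal change, while 1 of 6, 2 of 13 and 3 of 25 calls are kept with the block.

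Genes of proteins that work beside these channels were listed too. The 15 tested genes of this list include Kcnj8 and Kcnj10, which are channel genes that match the name pattern and were left out of the members. Of the 15, 3 were higher and 1 lower in the knockout (26.7%, where 3.38% of all genes were called). Kcnj8 and Kcnj10 were among the 3, so this share rests in part on leaving them out of the members. The vascular rectifier Kcnj8 rose by 0.96 ± 0.13 and its partner Abcc9 by 0.95 ± 0.11, the glial rectifier Kcnj10 rose by 0.47 ± 0.10, and Lrrc38, an auxiliary BK subunit, fell by 0.32 ± 0.08 (adjusted p from 0.000557 to 0.0396, limma). Of 6 pericyte and smooth muscle markers 3 were higher in the knockout, with mean levels of 0.37 to 0.85 against -0.02 to 0.35 in Cre GFP. Of 7 astrocyte markers 2 were higher, Aqp4 by 0.34 ± 0.08 and Slc1a3 by 0.37 ± 0.08 (adjusted p = 0.0416 and 0.0244, limma), and 4 of the 7 means were lower. The largest change of the 7 was that of Gfap, at -0.80 ± 0.21 without passing (adjusted p = 0.0524, limma). The mean levels of the 7 were 3.51 to 3.73 in the knockout against 3.56 to 3.79 in Cre GFP. The part of these cells in the rises was not tested. With active CRHR1 Kcnj8 rose by 0.67 ± 0.13 (adjusted p = 0.00634, limma) and Lgi1, a secreted partner of Kv1 complexes, fell by 0.20 ± 0.05 (adjusted p = 0.0284). Of 2 tested HCN genes 0 passed against Cre GFP in limma, and 1 had an unadjusted p under 0.05 in the knockout and 0 with active CRHR1. In active CRHR1 against knockout both passed, Hcn2 at -0.27 ± 0.08 and Hcn3 at 0.28 ± 0.08 (adjusted p = 0.0348 and 0.0239, limma). Of 10 genes of the sodium pump and of potassium chloride cotransport 1 passed against Cre GFP, Slc12a7 (KCC4), which rose by 0.66 ± 0.16 with active CRHR1 (adjusted p = 0.0198, limma).

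Not every member could be measured. To be tested, a gene had to exceed the background clearly on 4 arrays of 1 group or more. The 9 members short of this were Kcne1, Kcne2, Kcng3, Kcnj1, Kcnk18, Kcnmb1, Kcnmb3, Kcnn1 and Kcnv2. Of these, 5 were above background on some arrays, Kcnmb1 on 5 of 15, Kcnmb3 on 3, Kcng3 on 2 and Kcne1 and Kcnn1 on 1 each. The other 4 were above background on none, which does not show that they are absent. Of the 81 tested members 75 were well above background on all 15 arrays and 6 on fewer. Kcnj4 has no value on knockout array 5, where its spot was marked as an outlier, and its fit used the other 14 arrays.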

How the data were processed

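Total bulb RNA (100 ng, Cy3) was hybridised to 1-colour Agilent arrays of 62976 spots, per the labels' protocols. Per the file headers, the deposited spot intensities came from Agilent Feature Extraction 10.7.3.1, background-subtracted and not scaled between arrays, with mm9 probe coordinates. The authors' series values are a ratio of each processed intensity to its array's median, as found by setting them against the deposited scanner values. Here log2 intensities were centred on each array's 75th percentile, without control spots and outlier flags. Probes had to exceed the background clearly on 4 of 5 arrays of any group, and the brightest kept probe stood for its gene. limma 3.58.1 (lmFit, eBayes; R 4.3.3) was fitted over all 15 arrays, with Benjamini-Hochberg adjustment over 27438 genes and a threshold of 0.05; the steps were tested on simulated data.

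The members and gene lists were chosen with earlier results of these data known. Named were the 12 largest rises and 12 largest falls among called members of each comparison, the 3 members of smallest p in a family with none called, and at most 4 called genes of other lists. Some members that this names are not reported here. Any other gene given with values was chosen after they were seen. Alternatives covered scaling, background correction, probe filter and choice, slide, replicate number, threshold and arrays left out. The number of arrays, 5 a group, limits the precision.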

Additional observations from a re-analysis of the deposited data

Results flagged for a closer look

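In 6 of 93 groups of 5 arrays, over 31 members called in any comparison, 1 array lay far from the other arrays of its group by Dixon's criterion, of which chance flags about 5%. Knockout array 1 was high for Kcnip1 (1.86, the others 1.51 to 1.56). Knockout array 5 was high for Kcnv1 (0.35, the others -0.12 to -0.04). Cre GFP array 2 was high for Kcnk10 (1.43, the others 1.31 to 1.34) and for Kcnk7 (-5.09, the others -5.97 to -5.81). Cre GFP array 5 was high for Kcnh8 (-2.24, the others -2.80 to -2.71), and active CRHR1 array 3 was high for Kcnj11 (-0.79, the others -1.11 to -1.03).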

How the results depend on the processing

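The 44 calls of single members kept their direction in all 1276 values under alternatives, and 302 of these values lost the call. Kcng2, Kcnk6 and Kcnq1 in active CRHR1 against knockout kept theirs in every alternative run for them. The groups of that comparison share no slide, so the fit within 1 slide could not be run for it. In the other comparisons that fit kept 1 of 19 calls. For knockout against Cre GFP, 6 members were called (2 higher, 4 lower). The count was 3 with arrays centred on their median, 1 in the authors' scaled values, 2 with no filter on dim probes, 1 with slide as a fixed block, 1 within slide 1 and 1 with only the 2 groups fitted. At an adjusted p under 0.01 in limma it was 0, with 23 members at an unadjusted p under 0.05. It was 2 without knockout arrays 2 and 5, an alternative chosen after seeing the data, and 2 to 6 with 1 array left out. For active CRHR1 against Cre GFP, 13 were called: 6 with no filter, 4 with slide as a fixed block, 0 within slide 2 (limma; 32 at an unadjusted p under 0.05), 21 with an intensity trend, 26 with array weights and 5 at 0.01. Leaving out 1 array gave 6 to 20. For active CRHR1 against knockout, 25 were called: 14 in the authors' scaled values, 4 with slide as a fixed block, 8 at 0.01 and 10 without knockout arrays 2 and 5. Leaving out 1 array gave 14 to 26. The other counts were within 1.5 times of these. The causes were not tested. Deviations of same-numbered arrays correlated at -0.22 to 0.41. Such correlations cannot exclude links between the mice, which the labels do not describe. With the replicate number as a block 2, 8 and 21 members were called. Probes not well above background have no measured level, which limits the 9 untested members and Kcne3.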
